A study of Mus musculus with 12 samples.

Results

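Leukocyte integrins are the adhesion receptors with which white blood cells hold on to the vessel wall and to each other. The genes described here are the 7 that encode the chains used mainly by leukocytes, namely the α chains Itgal, Itgam, Itgax, Itgae and Itga4 and the β chains Itgb2 and Itgb7. They were taken by symbol from the Ensembl rows of the expression table, each matched 1 row, and together they are 7 of 55092 listed features.

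RNA-Seq was performed on the infrarenal part of the abdominal aorta, with 1 library per mouse and 12 male mice, 3 in each of 4 groups. CCN2fl/fl mice, which carry floxed Ccn2 alleles and no Cre, received saline in the CFS group and Ang II in the CFA group. CCN2SMCΔ mice, in which tamoxifen-activated Cre driven by the Myh11 promoter deletes Ccn2 in smooth muscle cells (SMCs), received saline in the CSS group and Ang II in the CSA group. All 4 groups received 5 doses of tamoxifen from 8 weeks of age, a washout of 2 weeks, and then an osmotic pump for 7 days, which delivered Ang II at 500 ng/kg/min in CFA and CSA. Since only the CCN2SMCΔ mice carry Cre, the deletion and the presence of Cre cannot be told apart.

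An integrin is a pair of 1 α and 1 β chain, and a chain needs its partner to reach the cell surface. The β2 chain (CD18, from Itgb2) pairs with αL (CD11a, Itgal) to form LFA-1, with αM (CD11b, Itgam) to form Mac-1 and with αX (CD11c, Itgax), and these receptors bind ICAMs, fibrinogen and complement fragments during arrest, crawling and phagocytosis. The α4 chain (Itga4) pairs with β1 to bind VCAM-1 and fibronectin, or with β7 (Itgb7) to bind MAdCAM-1, while αE (CD103, Itgae) pairs only with β7 and binds E-cadherin.

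Itgam (chr7:128062640-128118491) and Itgax (chr7:128129547-128150657) are neighbours on mouse chromosome 7 (GRCm38), and Itgal (chr7:127296260-127335138) lies further away on it, all on the plus strand. Itgb2 lies at chr10:77530252-77565708, Itga4 at chr2:79255426-79333123 and Itgae at chr11:73090583-73147446 on the plus strand, and Itgb7 at chr15:102215995-102231944 on the minus strand. Of the bases in their exons, Itgb2, Itgax, Itgal, Itgae and Itgb7 have 0% in common with other genes of the annotation and Itga4 has 8.0%. Itgam has 68.7% in common, all with the readthrough gene Gm49368, which reached at most 0.204 FPKM. If fragments on shared bases were dropped from counting, which is not given in the sources used here, only 1574 of 5024 exonic bases of Itgam would count and its level would be understated by up to 3.19-fold in every group alike. Of 176 protein-coding genes whose exons are wholly shared, 82.4% were listed at 0 in each of the 12 libraries, against 23.3% of 15460 coding genes with no shared base. The order of Itgam among the genes, its spread, its share and the ratio to Itgb2 are therefore also given per unshared base. This alternative was added after the data were seen. The ratio of Itgam to Ptprc is given on the FPKM as deposited only. The factor is the same in every library, so the ratio of Itgam FPKM between groups is the same with and without it, and its log2 difference changes only through the pseudocount.

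RefSeq promoters (GRCm38.p6, 250 bases before to 50 after the annotated start) were at hand for 4 of the 7 genes. They are shown for Itgam, Itgax and Itgb7, which were called in CSA against CFA below, and for Itga4, which was not. Capitals mark GAGGAA or its reverse complement TTCCTC, which contain GGAA or TTCC, the core bound by ETS factors such as PU.1. They also mark GGGCGG or its reverse complement CCGCCC, the GC box. Both sets of letters were searched on both strands. The windows are chr7:128062390-128062689 (plus) for Itgam, chr7:128129300-128129599 (plus) for Itgax, chr15:102231886-102232185 (minus) for Itgb7 and chr2:79255176-79255475 (plus) for Itga4.
Itgam: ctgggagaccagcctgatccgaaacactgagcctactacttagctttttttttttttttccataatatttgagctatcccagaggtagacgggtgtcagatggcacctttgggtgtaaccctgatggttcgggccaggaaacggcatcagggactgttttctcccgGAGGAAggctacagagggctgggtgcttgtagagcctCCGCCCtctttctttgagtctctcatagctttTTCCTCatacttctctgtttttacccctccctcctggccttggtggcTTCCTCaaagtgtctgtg
Itgax: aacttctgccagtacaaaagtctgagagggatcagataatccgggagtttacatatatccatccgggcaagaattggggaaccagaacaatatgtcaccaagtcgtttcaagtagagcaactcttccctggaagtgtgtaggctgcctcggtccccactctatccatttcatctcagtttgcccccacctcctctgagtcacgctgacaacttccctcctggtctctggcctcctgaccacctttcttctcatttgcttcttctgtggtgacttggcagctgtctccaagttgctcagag
Itgb7: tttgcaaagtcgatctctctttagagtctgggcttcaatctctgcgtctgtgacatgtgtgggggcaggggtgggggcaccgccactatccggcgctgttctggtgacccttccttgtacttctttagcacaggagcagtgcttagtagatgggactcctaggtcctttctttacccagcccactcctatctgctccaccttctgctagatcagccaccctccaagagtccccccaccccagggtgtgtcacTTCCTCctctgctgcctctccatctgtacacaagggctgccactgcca
Itga4: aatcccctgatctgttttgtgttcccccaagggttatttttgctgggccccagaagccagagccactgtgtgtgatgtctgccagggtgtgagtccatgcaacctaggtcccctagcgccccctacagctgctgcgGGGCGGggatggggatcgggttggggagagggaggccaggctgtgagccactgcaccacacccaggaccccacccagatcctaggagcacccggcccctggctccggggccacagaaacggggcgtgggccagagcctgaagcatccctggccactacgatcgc
The ETS letters occurred at -84, -15 and 32 from the start in the Itgam window, at 2 in that of Itgb7, and in neither of the others. These longer letters, GAGGAA or TTCCTC, occur in 28.3% of 32851 RefSeq promoters of this length. The shorter GGAA was neither searched nor marked, so a window without marked ETS letters may still hold it. The GC box occurred at -47 in Itgam and at -114 in Itga4, and in 35.7% of all promoters. A match describes these letters only, and no binding was measured here.

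Recovered fragments ranged from 14558580 to 23107802 per library, with the lowest total in CSA mouse 03. Values are FPKM, fragments per kilobase of exon and per library size as the authors scaled them, so levels can be compared between genes. Ccn2, the deleted gene, was at 709.5, 1108 and 480.1 FPKM in CFS, 436, 639.9 and 587 in CSS, 1013, 1105 and 564 in CFA and 255, 331 and 399 in CSA. Its groups overlapped under saline and did not under Ang II. By limma Ccn2 differed by -0.40 ± 0.34 (adjusted p = 1) on the log2 scale in CSS against CFS and by -1.41 ± 0.34 (adjusted p = 0.00622, under the fold limit) in CSA against CFA, so a lower level was not shown in the saline comparison. The libraries that stood apart were CSA mouse 03, whose root mean square log2 distance to CSA mice 01 and 02 was 1.21 and 1.20 while those lay 0.505 from each other, and CFA mouse 72, the highest of its group for each of the 7 integrin genes. For several results that rest on either, the values without it are also given.

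Itgb2, the common β chain, had the highest mean level of the 7 genes in each of the 4 groups. It measured 4.48, 5.18 and 3.72 FPKM in the CFS mice, 6.75, 4.67 and 3.63 in CSS, 5.99, 13.1 and 5.47 in CFA and 74.2, 66.2 and 69.6 in CSA. The 3 CSA aortas stood above all 9 others, and the mean in CSA (70.01 ± 4.0 FPKM, SD, n = 3) compared with 8.18 ± 4.25 in CFA.

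Itgam, the α chain of Mac-1 on neutrophils, monocytes and macrophages, measured 0.958, 0.734 and 0.554 FPKM in CFS and 0.707, 0.827 and 0.476 in CSS. It measured 1.01, 2.87 and 0.967 in CFA and 15.7, 16.7 and 24.2 in CSA. Its 3 CSA values were again the highest, with CSA mouse 03 at the top. Itgax, the CD11c chain of dendritic cells and many tissue macrophages, went from 0.552, 0.445 and 0.398 FPKM in CFS and 0.493, 0.213 and 0.258 in CSS to 0.593, 2.97 and 0.943 in CFA and 19.9, 15.9 and 14.05 in CSA. Within CFA, mouse 72 was the highest of its group and still lay below each CSA mouse.

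Itgal, the LFA-1 chain carried by most leukocytes, lymphocytes included, measured 0.395, 1.16 and 0.432 FPKM in CFS, 1.38, 0.977 and 0.700 in CSS, 1.03, 1.47 and 0.984 in CFA and 11.04, 7.87 and 7.27 in CSA. The first 3 groups overlapped and CSA did not overlap with any of them.

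Itgb7, the partner of α4 and αE on lymphocytes and some dendritic and mast cells, measured 0.273, 0.830 and 0.607 FPKM in CFS, 1.75, 1.32 and 0.846 in CSS, 1.41, 3.52 and 1.26 in CFA and 20.1, 17.7 and 8.01 in CSA. Its spread in CSA was, on the FPKM as deposited, the widest of the 7 (15.3 ± 6.4 FPKM, SD, n = 3), with CSA mouse 03 at the low end. Per unshared base the spread of Itgam was wider (60.2 ± 14.8 FPKM, SD, n = 3). Itgae, its αE partner on tissue-resident T cells and a subset of dendritic cells, was the lowest of the 7 in each group. It measured 0.0827, 0.0467 and 0.0759 FPKM in CFS, 0.129, 0.141 and 0.1003 in CSS, 0.140, 0.669 and 0.134 in CFA and 1.80, 2.03 and 1.85 in CSA. Outside CSA these values rest on 4 to 65 fragments per library, against 130 to 197 in CSA.

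Itga4 encodes the α4 chain that lets lymphocytes and monocytes bind VCAM-1. It varied little across the other 9 aortas, at 1.90, 1.58 and 1.497 FPKM in CFS, 1.88, 1.49 and 1.52 in CSS and 1.82, 1.97 and 1.88 in CFA, and stood at 4.87, 3.92 and 7.59 in CSA. In CFS it ranked next below Itgb2, above Itgam, Itgal, Itgb7 and Itgax, whose neighbours in rank overlapped. In CSA it ranked next above Itgae, and each pair of neighbours from Itgam through Itgax, Itgb7 and Itgal to Itga4 again overlapped in range. Itgb2 above and Itgae below did not overlap with their neighbours in either group. This order depends on the level of Itgam, which per unshared base was 1.77 to 3.06 FPKM in CFS, with a mean above that of Itga4, and 50.1 to 77.2 in CSA, where it overlapped with Itgb2.

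**Figure D1:**
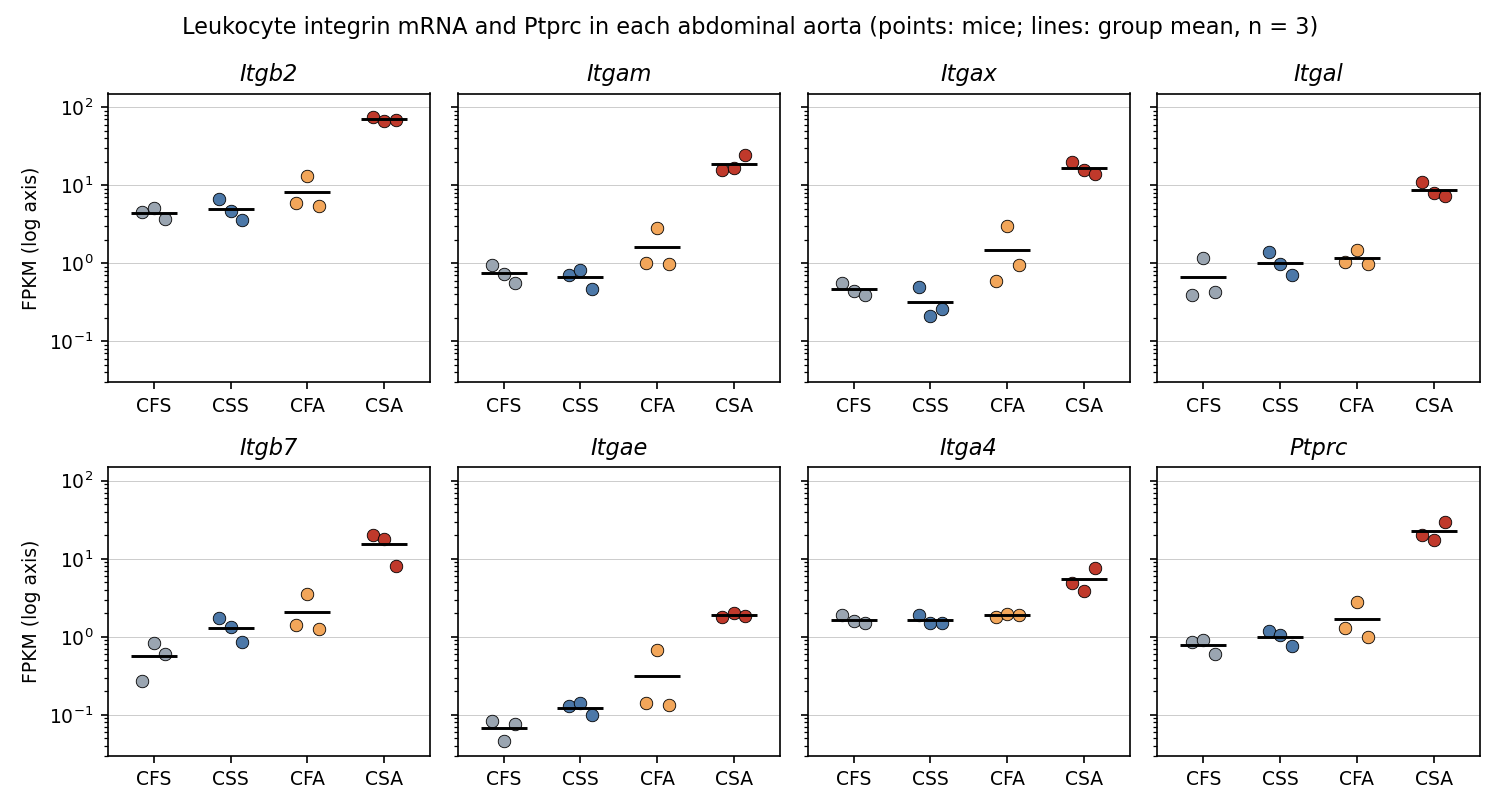
FPKM on a log axis for the 7 integrin genes and Ptprc in each aorta, with points for mice and a line for the mean of 3. In each panel the 3 CSA points lie above the other 9, and in CFA 1 mouse (72) lies highest.

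The effect of the deletion under Ang II is the comparison of CSA with CFA. Of the 7 integrin genes 6 were called higher, at an adjusted p under 0.05 (limma, Benjamini-Hochberg over 14676 genes) and a log2 fold change over 1.5, and 0 lower, against 8.95% of all tested genes called higher. The log2 fold changes, on the log2(FPKM + 0.1) scale, were 3.66 ± 0.47 (SE) for Itgax, 3.61 ± 0.39 for Itgam, 3.20 ± 0.31 for Itgb2, 2.87 ± 0.49 for Itgb7, 2.81 ± 0.37 for Itgal and 2.50 ± 0.50 for Itgae. As folds these run from 5.67 for Itgae to 12.7 for Itgax. Over all alternatives the log2 fold changes ranged from 2.92 to 4.28 for Itgax, 2.98 to 4.10 for Itgam and 2.97 to 3.59 for Itgb2. These ranges overlap. Itga4 passed the adjusted p (0.00046, limma) with a log2 difference of 1.43 ± 0.23 and stayed under the fold limit. The call of Itgae, whose values outside CSA are close to the pseudocount, was lost with a pseudocount of 1 (1.16). The adjusted p of the 6 called genes ran from 1.90e-05 for Itgb2 to 0.00227 for Itgae. The median over the 7 was 2.87, beside -0.04 over all tested genes. For all 7 the CSA and CFA mice did not overlap, as was so in the higher direction for 23.4% of tested genes. The p-values measure the spread between mice. In bulk tissue, more cells of a type and more RNA per cell cannot be told apart.

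Of these genes Itgam, Itgax and Itgae reached 1 FPKM in 3 libraries only with CSA counted, so their place among the tested genes was set by the group in which they were high. Of the other 4, Itgb2, Itgb7 and Itgal were called and Itga4 was not. Without CFA mouse 72 the log2 fold change was 4.28 for Itgax, 4.10 for Itgam and 3.07 for Itgae, and without CSA mouse 03 it was 3.28 for Itgb7 and 1.17 for Itga4. The same 6 genes were called in both cases.

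**Figure D2:**
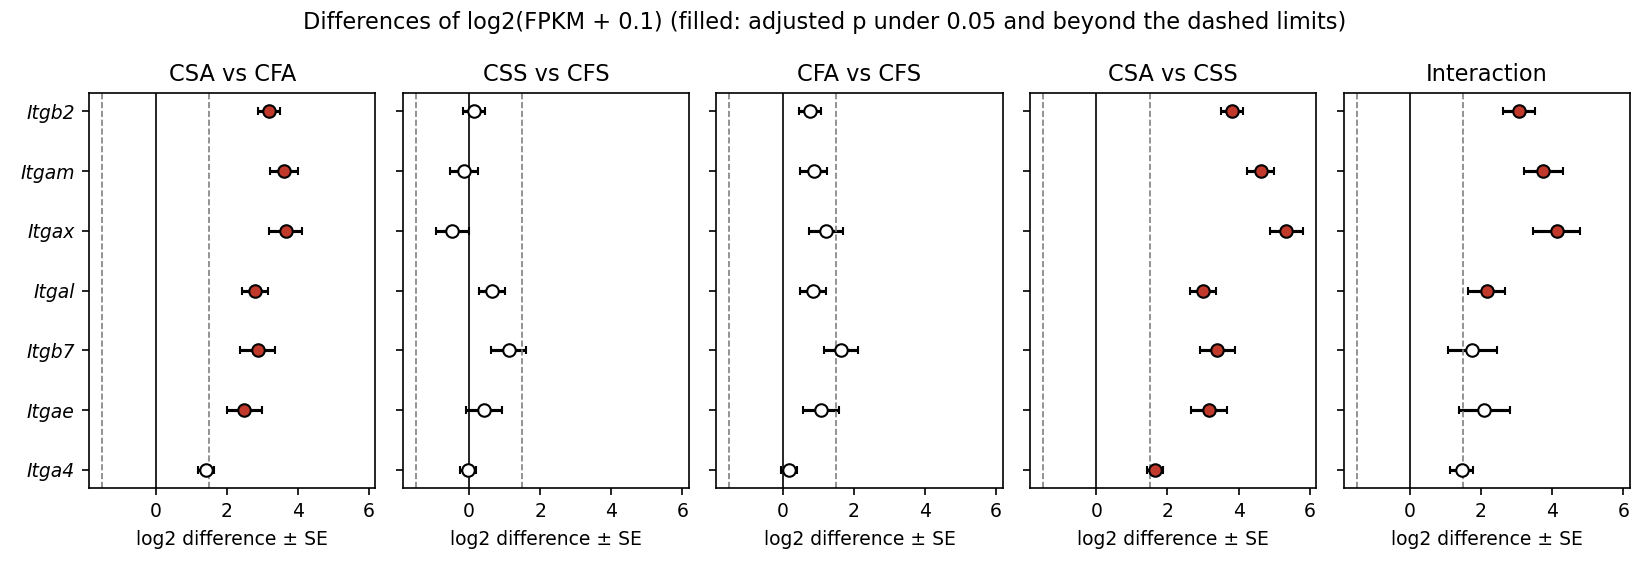
Log2 differences of FPKM + 0.1 with their SE for the 7 genes in 5 comparisons, filled where called and with dashed lines at the fold limit. The points lie right of the limit in CSA against CFA for all but Itga4, and between -0.47 and 1.64 in both comparisons with CFS.

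Under saline, CSS was compared with CFS. Of the 7 genes 0 were called higher by limma, against 0.00681% of all tested genes, and 1 had an unadjusted p under 0.05, as had 3.08% of all tested genes in the higher direction. That gene was Itgb7, with a log2 fold change of 1.11 ± 0.49 (limma adjusted p = 0.772). Its 3 CSS mice lay above its 3 CFS mice, as they also did for Itgae (0.41 ± 0.50), and 11.1% of all tested genes did so. The other differences were 0.65 ± 0.37 for Itgal, 0.13 ± 0.31 for Itgb2, -0.03 ± 0.23 for Itga4, -0.14 ± 0.39 for Itgam and -0.47 ± 0.47 for Itgax. The median over the 7 was 0.13, beside 0.01 over all genes.

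The effect of Ang II in the floxed controls was tested as CFA against CFS. All 7 differences were positive and 0 were called (limma), against 0.0204% of all tested genes called higher. An unadjusted p under 0.05 was reached by 5 of the 7, as in the higher direction by 5.61% of all genes. This count is given only with CFA mouse 72 included. Itgb7 had the largest difference (1.64 ± 0.49, limma adjusted p = 0.267), followed by Itgax (1.22 ± 0.47), Itgae (1.07 ± 0.50), Itgam (0.87 ± 0.39), Itgal (0.84 ± 0.37), Itgb2 (0.76 ± 0.31) and Itga4 (0.18 ± 0.23). The CFA and CFS mice did not overlap for Itgb7, Itgax, Itgae, Itgam and Itgb2, as was so in the higher direction for 9.44% of all tested genes. Without CFA mouse 72 the differences were 1.19 for Itgb7, 0.60 for Itgax, 0.50 for Itgae, 0.38 for Itgam, 0.68 for Itgal and 0.36 for Itgb2.

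The effect of Ang II after the deletion was tested as CSA against CSS. All 7 genes were called higher (limma), against 10.9% of all tested genes. Itgax had the largest log2 fold change, 5.35 ± 0.47, a 40.8-fold difference, and Itgam followed with 4.62 ± 0.39. Over all alternatives these ranged from 3.73 to 5.62 for Itgax and from 3.55 to 4.77 for Itgam. The others were 3.82 ± 0.31 for Itgb2, 3.40 ± 0.49 for Itgb7, 3.16 ± 0.50 for Itgae, 3.0 ± 0.37 for Itgal and 1.64 ± 0.23 for Itga4. The call for Itga4 was lost without CSA mouse 03, where its difference was 1.38, with a pseudocount of 1 (1.26) and with array weights (1.35), and that of Itgae with a pseudocount of 1 (1.36). This comparison shares CSA with the first, so the calls are not independent.

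Whether the effect of the deletion differed between Ang II and saline was tested by the genotype by treatment interaction. It was called for 4 of the 7 genes (limma), against 7.89% of all tested genes called in the positive direction. The interaction was 4.13 ± 0.66 for Itgax (limma adjusted p = 0.00117), 3.76 ± 0.55 for Itgam (0.000652), 3.06 ± 0.44 for Itgb2 (0.000626) and 2.16 ± 0.52 for Itgal (0.0115). Without CFA mouse 72 these were 4.75, 4.24, 3.46 and 2.32. Itga4 passed the adjusted p (0.00651) at a value of 1.46 ± 0.32, under the fold limit, and was called without CFS mouse 70 (1.52), CSA mouse 01 (1.51), CSA mouse 02 (1.66) or CSS mouse 54 (1.56). The 2 genes of the αEβ7 pair did not pass, with 2.09 ± 0.71 for Itgae (limma adjusted p = 0.0519) and 1.76 ± 0.69 for Itgb7 (0.0870). Without CFA mouse 72 both were called, at 2.66 for Itgae (limma adjusted p = 0.00670) and 2.20 for Itgb7 (0.0314). Without CSA mouse 03 Itgb7 was called as well, at 2.17 (limma adjusted p = 0.0271), and Itgae was not. Itgae was also called with no filter, with equal totals, without trend and robust settings and with array weights, and Itgb7 with a pseudocount of 1 and with array weights. Over all alternatives the adjusted p ranged from 0.00458 to 0.116 for Itgae and from 0.00604 to 0.186 for Itgb7.

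The 3 α chains of β2 were compared by their shares of the summed FPKM of Itgal, Itgam and Itgax. In CSA, Itgal held 23.7%, 19.5% and 16.0% of that sum, Itgam 33.7%, 41.3% and 53.1% and Itgax 42.7%, 39.3% and 30.9% in mice 01, 02 and 03. In CSS, Itgal held 53.6%, 48.4% and 48.8%, and Itgax 19.1%, 10.6% and 18.02%. Itgal had, on the FPKM as deposited, the largest share of the sum in the saline-infused CCN2SMCΔ mice and the smallest in the Ang II-infused ones. The means were 50.3% ± 2.9 and 19.7% ± 3.8 for Itgal and 15.9% ± 4.6 and 37.6% ± 6.1 for Itgax (SD, n = 3), differences of -30.6 and 21.7 percentage points without overlap. A two-sided exact permutation test gave p = 0.1 for each, the smallest that 3 against 3 allows, and 0.48 after adjustment over 12 comparisons. In CFS, Itgal held 20.7% to 49.5% and Itgax 19.1% to 29.0%, and in CFA 20.1% to 39.1% and 22.6% to 40.6%, so that CSA overlapped with CFA for all 3 chains. For Itgal this overlap came from CFA mouse 72 (20.1%) alone, since mice 71 and 74 were at 39.1% and 34.0%. The shares of Itgam overlapped in all 4 comparisons. With Itgam taken per unshared base the ranking changed, since Itgam then held 61.6% of the sum in CSS and Itgal 29.1%, and the differences between CSA and CSS were smaller, at -18.7 points for Itgal and 10.5 for Itgax, still without overlap.

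**Figure D3:**
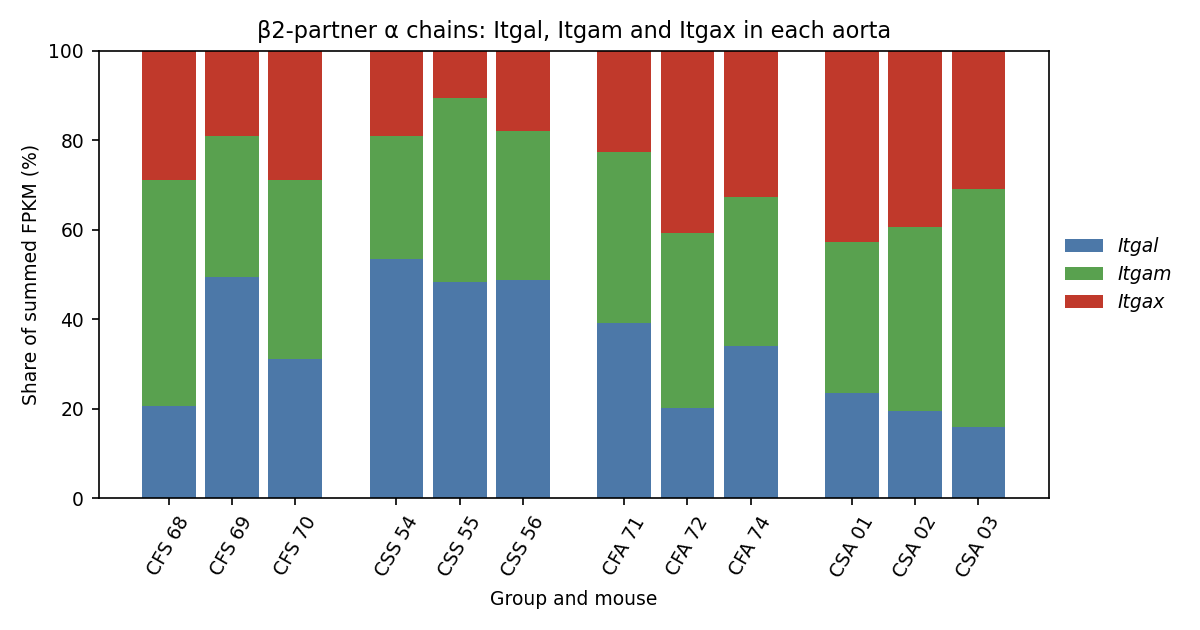
Shares of Itgal, Itgam and Itgax in their summed FPKM, in percent and on the FPKM as deposited, as 1 stacked bar per mouse. Itgal takes 48.4% to 53.6% in the CSS bars and 16.0% to 23.7% in the CSA bars, and the 3 CFS bars differ among themselves.

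Relative to the β chain, the 3 α chains summed to 0.372 to 0.450 of the FPKM of Itgb2 in CFS, 0.383 to 0.432 in CSS, 0.438 to 0.559 in CFA and 0.610 to 0.654 in CSA. The CSA values were the highest, and with Itgam taken per unshared base they still were, at 1.09 to 1.42 beside 0.612 to 1.04 in the other 9 libraries. Itgad, the remaining α chain that pairs with β2, stayed at 0.115 FPKM or less in each library and was not tested. Itgb1, the other partner of α4 and a chain of many integrins outside leukocytes, measured 465, 468 and 375 FPKM in CFA and 198, 189 and 312 in CSA (log2 difference -0.93 ± 0.19, adjusted p = 0.00215 by limma, under the fold limit). The ratio of Itgb1 to Itga4 was 199 to 299 in the other 9 libraries and 40.6 to 48.3 in CSA. The ratio of Itga4 to Itgb7, its leukocyte partner, was 0.242 and 0.222 in CSA mice 01 and 02 and 0.947 in mouse 03. In CFA it was 0.560 in mouse 72, and 1.29 and 1.49 in mice 71 and 74.

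Each gene was also set beside Ptprc (CD45), the tyrosine phosphatase on the surface of nearly all leukocytes. Ptprc measured 1.301, 2.80 and 0.999 FPKM in CFA and 20.4, 17.3 and 29.5 in CSA, a log2 difference of 3.74 ± 0.35 (adjusted p = 1.39e-05 by limma). The ratio of Itgam to Ptprc was 0.806 to 1.12 in CFS, 0.595 to 0.773 in CSS, 0.773 to 1.02 in CFA and 0.771 to 0.963 in CSA, so that CFA and CSA overlapped and the saline groups did not. CFA and CSA also overlapped in the ratios of Itgax (0.455 to 1.06 and 0.476 to 0.977), Itgae (0.108 to 0.239 and 0.0627 to 0.117) and Itgal (0.525 to 0.984 and 0.246 to 0.542). For Itgal the overlap came from CFA mouse 72 (0.525) alone, with 0.790 and 0.984 in mice 71 and 74. For Itgae it came from CFA mouse 71 (0.108) alone. They did not for Itgb7, at 1.08 to 1.26 in CFA and 0.271 to 1.02 in CSA, nor for Itgb2, at 4.60 to 5.47 and 2.36 to 3.83. Itga4 showed the widest gap of the 7, from 1.73 to 2.50 in CFS, 1.39 to 1.99 in CSS and 0.704 to 1.88 in CFA to 0.227 to 0.257 in CSA. The ratios of Itgam to Ptprc use the FPKM as deposited and would be up to 3.19-fold higher in every group per unshared base. None of these ratios was tested.

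**Figure D4:**
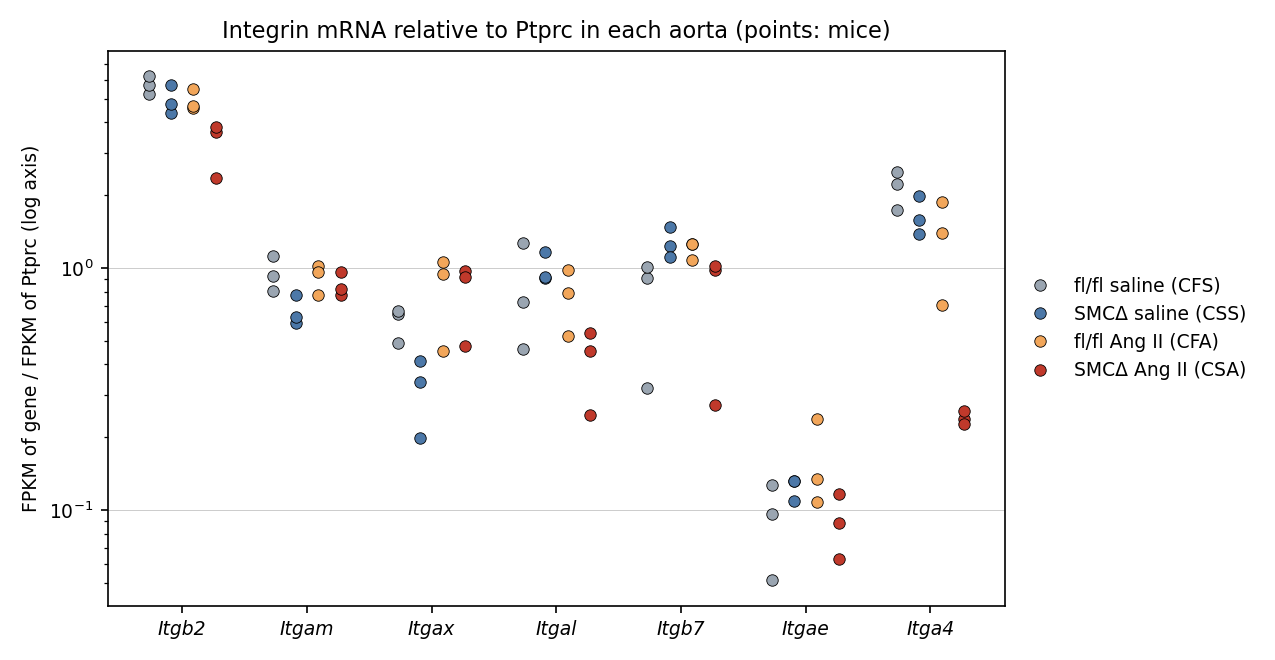
FPKM, as deposited, of each integrin gene divided by that of Ptprc in the same library, on a log axis, with points for mice colored by group. The CSA points of Itga4 lie at 0.227 to 0.257, below the other 9, while those of Itgam overlap with the points of CFA.

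Markers of several leukocyte types moved with the integrins. For the counts below, 8.95% of all tested genes were called higher in CSA than in CFA. The summed FPKM of 10 macrophage and monocyte markers was 159 to 205 in CFS, 178 to 225 in CSS, 244 to 485 in CFA and 1663 to 1857 in CSA, and 9 of the 10 were called higher in CSA than in CFA, with Ly6c2 among them tested only because of CSA. For 10 neutrophil markers the sum was 11.1 to 28.0 in CFA and 529 to 579 in CSA, all 8 that were tested were called, 5 of them tested only because of their level in CSA, and Ly6g and Mpo were not tested, at no more than 0.680 and 1.64 FPKM. All 8 T cell markers were called, each tested only because of its level in CSA, and their sum was 0.424 to 2.69 in CFA and 24.5 to 34.2 in CSA. Of 6 B cell markers 2 were tested, and again only because of CSA. Cd79b was called (log2 2.43 ± 0.46) and Cd79a was not (0.03 ± 1.09), while Ms4a1 stayed at no more than 0.295 FPKM in any library and was not tested. Of 7 dendritic cell markers 6 were tested, with sums of 7.77 to 14.5 in CFA and 22.1 to 26.0 in CSA. The 3 called, Flt3, Ccr7 and Siglech, were tested only because of CSA. Of the others Zbtb46 was lower in CSA (-0.80 ± 0.15, limma adjusted p = 0.00158, under the fold limit), Cd209a differed by -0.11 ± 0.43 and Clec9a by 0.27 ± 0.33, and Xcr1 was not tested, at 1.06 FPKM or less. Of 6 NK cell markers 2 were tested and both were called, 1 of them tested only because of CSA. Of 4 eosinophil markers 2 were tested, both only because of CSA, and both were called. None of the 4 mast cell and 4 platelet markers that were tested was called, and 0 and 1 of them had an unadjusted p under 0.05. In the opposite direction, in which 8.27% of all tested genes were called, all 6 smooth muscle markers were called lower, with sums of 5377 to 8214 in CFA and 785 to 931 in CSA, as were the 4 erythrocyte markers, with sums of 735 to 2467 and 57.8 to 605. Of 5 endothelial markers 2 were called lower, Pecam1 (-1.84 ± 0.56) and Vwf (-2.36 ± 0.54), with sums of 178 to 382 in CFA and 97.2 to 125.5 in CSA, while Kdr differed the other way without passing (0.92 ± 0.39, limma adjusted p = 0.0809). None of 4 fibroblast markers was called, with sums of 1787 to 2036 in CFA and 3362 to 4042 in CSA. Lum (1.44 ± 0.20, limma adjusted p = 0.000222) and Col1a1 (0.96 ± 0.16, 0.000529) were higher in CSA and under the fold limit. Dcn (0.54 ± 0.30, limma adjusted p = 0.183) and Pdgfra (0.38 ± 0.23, 0.219) did not pass. Of 4 adipocyte markers 1 was called lower. CFA mouse 72 had the highest sum of its group for the macrophage (485) and the pan-leukocyte (91.9) lists. The part of these shifts in cell type in the integrin differences was not tested.

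The genes whose pattern over the 12 libraries was nearest to that of each integrin were found from mean-centered log2(FPKM + 0.1) among the other tested genes, by the root mean square difference. Itgb2 was nearest to Laptm5 (0.138), a lysosomal membrane protein of blood cells, and Nckap1l (0.156), the leukocyte subunit of the WAVE actin complex. Itgam was nearest to Clec4a3 (0.195), a C-type lectin receptor, and Ptprc (0.235). Itga4 was nearest to Zc3hav1 (0.123), the antiviral protein ZAP, and Mitd1 (0.142), a protein of membrane trafficking in cell division. For Itgae the nearest were Ptpn7 (0.192), a phosphatase of blood cells, and Nlrp1b (0.242), an inflammasome sensor. Itgal lay nearest to Acap1 (0.231) and Tnfrsf13b (0.248), the receptor TACI, Itgb7 to Ccdc88b (0.265) and Napsa (0.304), and Itgax to B430306N03Rik (0.379) and Fgr (0.398), a Src family kinase of myeloid cells. Among the integrins themselves, Itgae with Itgb2 (0.379) and Itgam with Itgb2 (0.381) were the closest pairs, the known partners Itgae and Itgb7 lay 0.590 apart, and Itgax and Itga4 (1.53) were the farthest. These are descriptions over libraries that share the gap between CSA and the rest. The distances of Itgae also depend on the pseudocount of 0.1, to which its values outside CSA are close.

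The other genes of the pathway were taken from lists of ligands, activators, restraining factors and signaling proteins. Of 17 ligands 11 were tested in CSA against CFA, and 4 were called higher and 0 lower (limma), with a median log2 difference of 0.67. Of all tested genes 8.95% were called higher in this comparison and 8.27% lower. Spp1, the secreted ligand osteopontin, went from 6.30 to 44.6 FPKM in CFA to 368 to 589 in CSA (log2 5.03 ± 0.66). Vcam1, the endothelial ligand of α4β1, went from 10.3 to 13.5 to 33.8 to 47.4 FPKM (1.79 ± 0.36). Cdh1, which encodes the αEβ7 ligand E-cadherin, was at 0.0201 to 0.361 FPKM in CFA and 1.56 to 2.50 in CSA (3.27 ± 0.62), and was tested only because of its level in CSA. Thy1, named after its values were seen, was the remaining call (1.74 ± 0.36). Of the ligands under the fold limit, also named afterwards, Fn1, which encodes fibronectin, was lower in CSA (-0.97 ± 0.19, limma adjusted p = 0.00192), as were the junctional adhesion molecules Jam3 (-1.06 ± 0.13, 0.000106) and Jam2 (-0.67 ± 0.24, 0.0488). Complement C3, whose fragment iC3b is bound by Mac-1, was higher in CSA (1.29 ± 0.32, limma adjusted p = 0.00810). Icam2, a ligand of LFA-1 on endothelium, differed by -1.69 ± 0.66 and did not pass (0.0613). Icam1, the main ligand of LFA-1 and Mac-1 and likewise named afterwards, was not called, with 13.2 to 14.1 FPKM in CFA, 10.7 to 20.7 in CSA and a log2 difference of 0.20 (limma adjusted p = 0.595). Madcam1, the ligand of α4β7, stayed at 0.591 FPKM or less and was not tested.

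Integrins switch from a bent to an extended form when talin and kindlin bind the β tail, downstream of the GTPase Rap1. Of 12 activating factors 11 were tested, 4 were called higher and 1 lower, beside 8.95% and 8.27% of all tested genes. The median was 1.15. The 4 were Fyb (3.09 ± 0.19) and Apbb1ip (2.74 ± 0.32), adaptors that bring talin to the membrane, Rassf5 (2.63 ± 0.24), the Rap1 effector RAPL, and Fermt3, leukocyte kindlin, which was named after its values were seen (2.33). Tln1, which encodes talin 1 and was named after its values were seen, was lower in CSA and under the fold limit (-0.98 ± 0.18, limma adjusted p = 0.00147). The other factors under the fold limit, likewise named afterwards, were Rap1b (1.31), Stk4 (1.15), Skap2 (0.97), Cyth1 (0.86) and Rap1a (0.55). They were higher in CSA at a limma adjusted p of 7.70e-05 to 0.0422. At an adjusted p under 0.05, 19.5% of all tested genes were higher. Rasgrp2, an exchange factor for Rap1, fell by 1.61 ± 0.16 on the log2 scale, from 4.29 to 5.77 FPKM in CFA to 1.45 to 1.75 in CSA. Among 4 restraining factors 1 was called, and it was lower, beside 8.27% of all tested genes. This was Flna, which encodes filamin A, a competitor of talin that SMCs make in quantity. It fell by 2.58 ± 0.24 from 830 to 955 FPKM to 92.7 to 184.

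Of 17 genes that carry integrin signals in leukocytes 17 were tested, with a median of 3.22. Called higher were 14 and lower 0, beside 8.95% and 8.27% of all tested genes. Of the 14, Lck was tested only because of CSA. Among the 14 were also the exchange factor Vav1 (3.81 ± 0.34) and the adaptor Fcer1g (3.76 ± 0.32). In CSS against CFS and in CFA against CFS, 0 genes of each of these 4 lists were called by limma. At an unadjusted p under 0.05 there were 2 ligands higher, 1 ligand lower and 1 signaling gene higher in the first comparison, beside 6.30% of all tested genes in either direction. In the other there were 2 ligands higher and 1 lower, 2 activating factors higher and 1 lower and 8 signaling genes higher, beside 9.42%. The restraining list had 0 in both.

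**Figure D5:**
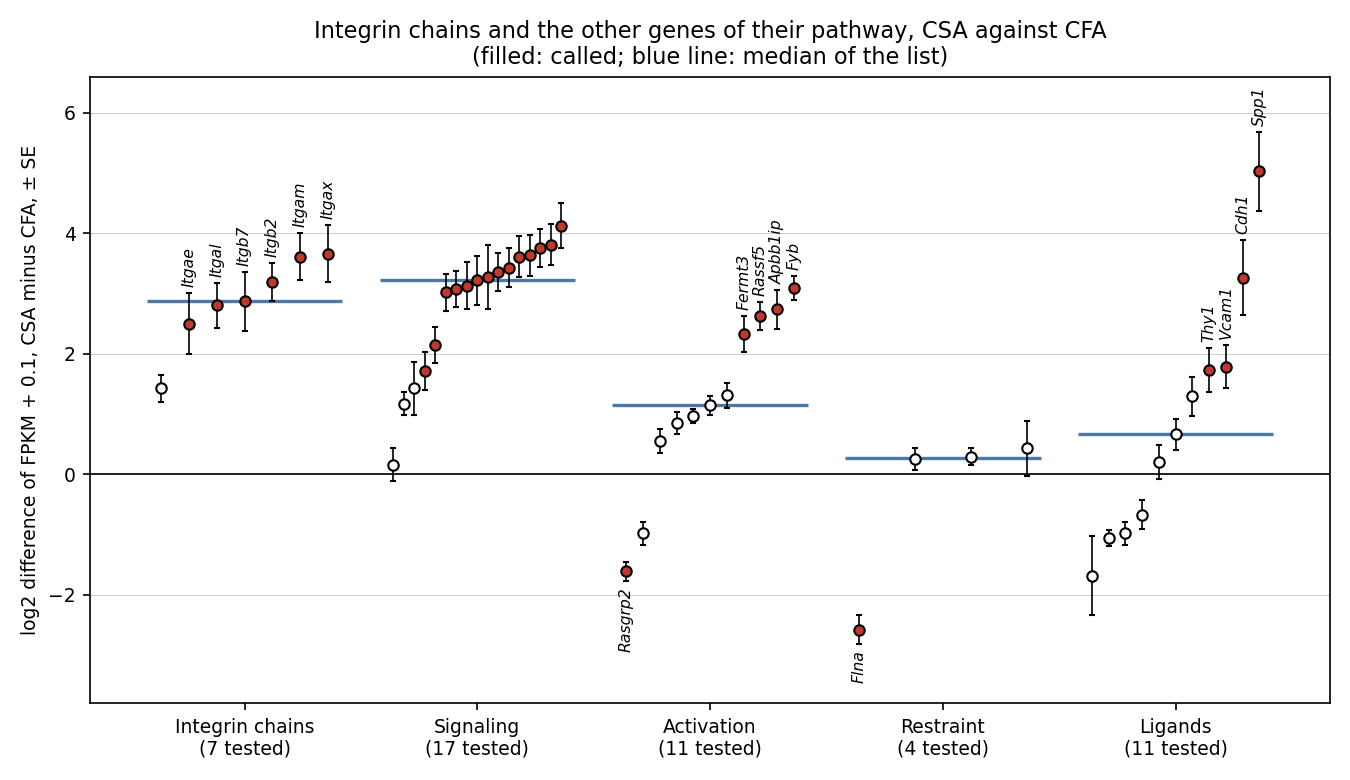
Log2 differences of FPKM + 0.1 with their SE between CSA and CFA for the tested integrin chains and 4 lists of pathway genes, filled where called, with a line at each list's median. Chains (2.87) and signaling genes (3.22) have the highest medians, and Rasgrp2 and Flna are the 2 called lower.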

How the data were processed

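The 12 libraries were grouped by their titles, with 1 deposited table of FPKM values, which hold fragments per kilobase of exon and library size as the authors computed them. The submitters' processing notes name HISAT2 2.0.5, StringTie 1.3.3b, featureCounts 1.5.0-p3 and the mouse build mm10, with no roles. The table listed 55092 features, of which 54532 have Ensembl identifiers, and all its value columns were used. In each library 98.1% to 98.5% of values under 100 fragments were whole fragments within 0.05, once the unit of 1 fragment had been derived from low values and GENCODE M21 exon lengths, and these recovered totals give the depth. Fragment counts limit the precision of low genes, and a value of 0 allows up to 3 fragments. The median log2 ratio to the mean of each gene was 0.0194 in each of the 12 libraries, so the deposited FPKM had been scaled to equal median ratios, a step that is not given in the sources used here.

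Values were tested as log2(FPKM + 0.1) with limma 3.58.1 in R 4.3.3, with 4 groups in 1 fit, empirical Bayes with trend and robust settings, and Benjamini-Hochberg adjustment across all 14676 genes with at least 1 FPKM in at least 3 libraries. Calls required an adjusted p under 0.05 together with a log2 fold change beyond 1.5 in either direction. FPKM are not counts, so no count model was used. Shares were tested by exact permutation tests in scipy 1.17.1. On simulated data with 200 genes changed 8-fold between CSA and CFA, the procedure called 182 of 193 tested, with 6 unchanged genes called. Named were the 7 integrin genes, Ccn2, Ptprc, Itgad and Itgb1, up to 3 called genes per direction from each pathway list, the 2 nearest genes in pattern and defining cell type markers. Some genes that this rule names are not reported here. The integrin genes and the lists were chosen with earlier results of these data known. Alternatives covered the pseudocount, filters, scaling, weights, moderation, fold limit, the groups fitted and leaving out each mouse.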

Additional observations from a re-analysis of the deposited data

Results flagged for a closer look

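The effect of the deletion differed between Ang II and saline, by limma's genotype by treatment interaction across all genes, for 5 of the 7 integrin genes at an adjusted p under 0.05 with no fold limit, beside 12.8% of all tested genes in the same direction. With the fold limit these were the 4 called above, without Itga4. The log2 difference between the effects was 4.13 for Itgax, 3.76 for Itgam, 3.06 for Itgb2, 2.16 for Itgal and 1.46 for Itga4, and without CFA mouse 72 it was 4.75 for Itgax. The 3 CSA mice stood above the other 9 for each of these genes, which restates values that the interaction uses. Without overlap, CSA lay above CFA for 23.4% of all tested genes and above CSS for 26.3%. The part of the marker shifts given above in these differences was not tested.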

How the results depend on the processing

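With a mean of at least 5 FPKM required, only Itgb2 and Itgam were tested, and 2 were called in CSA against CFA, 2 in CSA against CSS and 2 in the interaction, beside 6, 7 and 4 above. Over the other settings, leaving out each mouse included, 5 to 7, 5 to 7 and 4 to 6 were called, and 0 in each of the comparisons of CSS and CFA with CFS. With a pseudocount of 1, Itga4 lost its call in CSA against CSS (1.26), as with array weights (1.35), and Itgae fell under the fold limit in CSA against CFA (1.16) and against CSS (1.36). Itga4 crossed that limit in CSA against CFA with FPKM scaled to equal totals (1.51) and without CSA mouse 02 (1.64). In CSS against CFS the small difference of Itga4 changed sign when scaled to equal totals (0.0299). Leaving out 1 mouse at a time it ranged from -0.130 to 0.0698, that of Itgam from -0.315 to 0.0547 and that of Itgb2 from -0.102 to 0.337. The same step moved the difference in share between CFA and CFS from -9.28 to 5.09 percentage points for Itgal and from -8.16 to 1.26 for Itgam. Of the log2 differences recomputed 641 kept their direction and their side of the threshold, 15 gained a call, 5 lost one and 7 changed sign. The 641 include settings that could not move a log2 difference. The factors of median-of-ratios scaling were 1 in each library. Changing the moderation, fitting only the groups compared or leaving out a mouse outside them also left the difference as it was. Where calls changed, the cause was not tested. Itgae outside CSA is limited by depth. No paired analysis was possible because the groups share no replicate numbers.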
